A study of Mus musculus with 6 samples.

Results

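The 9 genes described here, Cps1, Otc, Ass1, Asl, Arg1, Nags, Slc25a13, Slc25a15 and Gls2, encode the enzymes and mitochondrial carriers with which hepatocytes turn ammonia into urea. They were found by gene symbol among the 54532 genes of the count table, and all 9 were among the 13377 genes that passed the filter on low counts. Liver RNA was sequenced from 6 male C57BL/6J mice rendered insulin resistant (IR) by a high-fat diet (HFD), which began at 8 weeks of age and lasted 6 weeks. All 6 mice were fasted for 16 h. Of these mice, 3 were then injected intraperitoneally with 0.75 units of insulin per kg (IR insulin) and 3 with bovine serum albumin (BSA), its vehicle (IR vehicle), and 6 h of treatment followed. Every group was therefore HFD-fed and fasted, and no chow-fed or unfasted liver entered the comparison.

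Ammonia released from amino acids in the mitochondria of periportal hepatocytes is joined to bicarbonate by carbamoyl phosphate synthetase 1, and the nitrogen then passes through citrulline, argininosuccinate and arginine to urea. The enzymes of the cycle are classically raised by fasting, glucagon and glucocorticoids, and insulin opposes these signals. Ammonia that escapes the periportal cells is taken up by pericentral hepatocytes, which use it to make glutamine. The comparison of the groups asks which of these transcripts differed 6 h after insulin in livers that are insulin resistant.

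Expression is given as CPM, the counts of a gene per 1000000 counts of the library, with library sizes scaled by TMM factors. Libraries held between 18449986 and 21827619 counts. The 9 genes together took 0.678% to 0.828% of all counts in the insulin libraries, and 0.758%, 0.694% and 1.66% in vehicle replicates 1, 2 and 3. The exact 95% interval of the last value was 1.65% to 1.66%, which covers counting error only. The differences between mice were therefore far larger than the counting error. Vehicle replicates 2 and 3 stood apart from the other libraries and are shown separately throughout. In vehicle replicate 2 the deviations of all genes ran against GC content, with −1.13 log2 units for every 10 percentage points of GC, whereas in the other 5 libraries the slope lay between −0.0637 and 0.188. Because this is bulk tissue, fewer cells of a type and less RNA per cell cannot be told apart.

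Across the 9 genes, 8 had a lower mean with insulin and 1, Nags, had a higher one, with a median log2 fold change of −0.60 (insulin minus vehicle). Over all 13377 genes, 51.4% had a negative log2 fold change and the median was −0.017. No member and no other gene passed an adjusted p of 0.05 (quasi-likelihood test of edgeR, Benjamini-Hochberg over all genes, smallest adjusted p 0.852). DESeq2 gave 0 such genes too, with a smallest adjusted p of 0.237, and at an unadjusted p under 0.05 edgeR counted 383 genes and DESeq2 548. The study reported fewer differentially expressed genes for this contrast than either of these counts, and the reason was not tested. The study's methods ask for an unadjusted p under 0.05 and a log2 fold change of 0.35 or more in either direction. By these criteria 1 of the 9 genes passed, Otc, against 2.86% of all genes tested and 1.86% in the downward direction. To pick candidate genes from this same contrast, the study set stricter limits on both fold change and p. In edgeR Otc met neither. In DESeq2, the study's tool, Otc met the limit on p (unadjusted p 0.0286) but not that on fold change (log2 fold change −0.63). The study's criteria named below are the looser, general ones. The values of the individual mice, given next in the order of the pathway, show what these group means are made of.

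**Figure D1:**
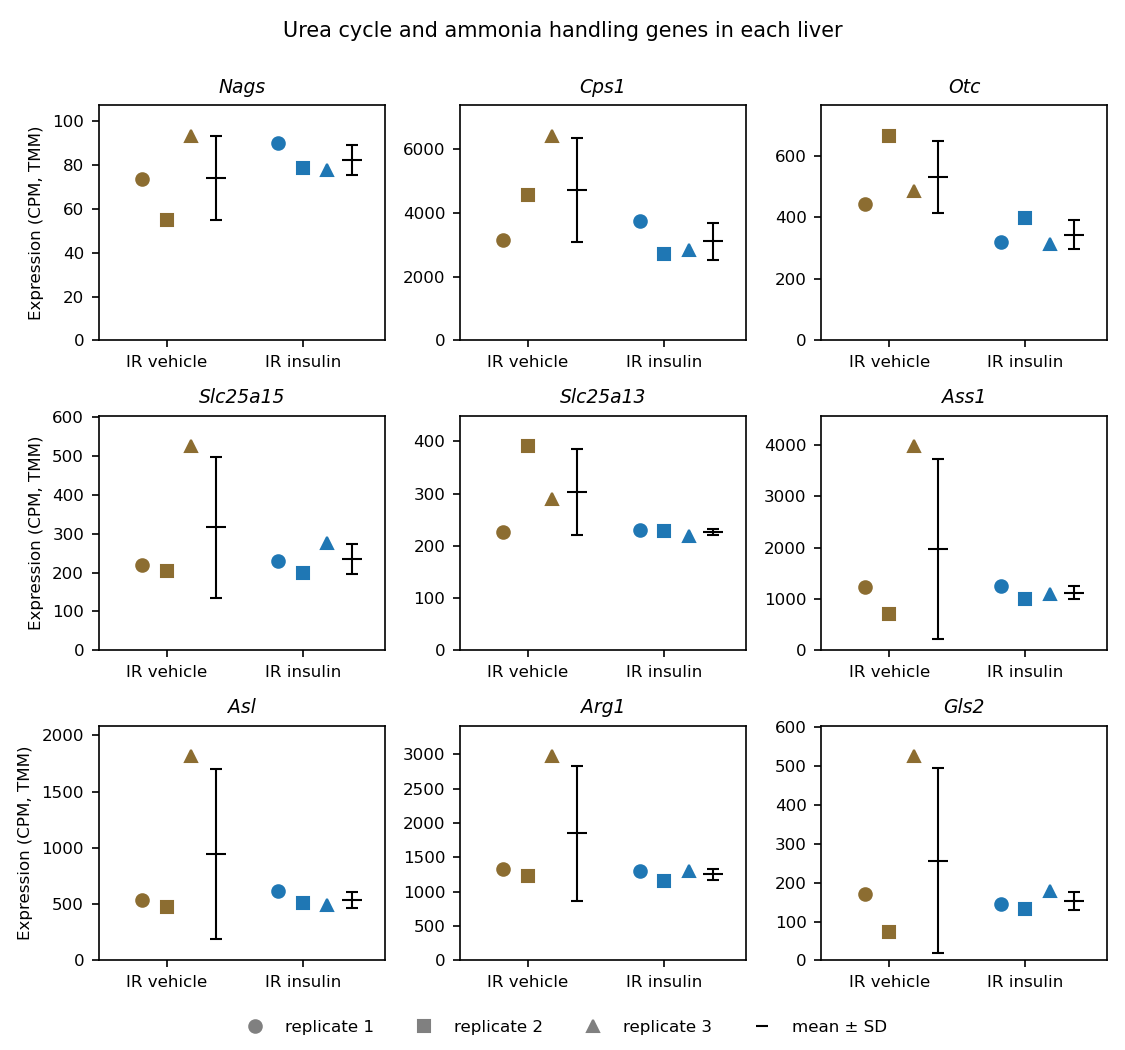
Expression of the 9 genes (CPM, linear axis from 0) in each liver, with IR vehicle in brown and IR insulin in blue, symbols marking the replicate and black bars the mean ± SD (n = 3). Vehicle replicate 3 (triangle) is the highest of the 6 livers for 7 genes, and only for Otc do all 3 insulin values lie under all 3 vehicle values.

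Gls2 encodes the liver-type glutaminase, which frees ammonia from glutamine inside periportal mitochondria. Vehicle replicates 1, 2 and 3 read 171, 73.9 and 526.2 CPM, and insulin replicates 1, 2 and 3 read 144.8, 133.3 and 177.8 CPM. The vehicle values thus lay both above and below all the insulin values, and the groups overlapped. Its log2 fold change of −0.76 ± 0.62 (SE) had an unadjusted p of 0.254 (edgeR). The gene (chromosome 10, 128194457 to 128210004, plus strand, build 38) shares 97 exonic bases with Spryd4 on the opposite strand, and since no strand setting is stated for the counting, reads of that gene may be counted for it.

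Nags encodes N-acetylglutamate synthase, which makes the allosteric activator without which carbamoyl phosphate synthetase 1 is inactive. Its vehicle values were 73.5, 54.9 and 93.1 CPM and its insulin values 89.9, 78.7 and 77.8 CPM. The insulin values lay inside the vehicle range. Insulin minus vehicle was 0.15 ± 0.25 on the log2 scale (SE; unadjusted p 0.557, edgeR), and the sign depended on the handling of vehicle replicate 2, being −0.016 without that library and −0.44 with an offset for GC content. Nags (chromosome 11, 102145513 to 102149477, plus strand) is the member with the most GC-rich transcript, at 59.7%. An antisense gene that overlaps it, Gm11586, was at no more than 0.303 CPM in any library.

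Cps1 encodes carbamoyl phosphate synthetase 1, the entry enzyme of the cycle and its rate-limiting step. It lies on chromosome 1 (67123026 to 67231259, plus strand) and overlaps no annotated gene. Vehicle values were 3144, 4566 and 6393 CPM, and insulin values 3753, 2704 and 2832 CPM. Both vehicle replicates 2 and 3 exceeded every insulin library, while vehicle replicate 1 lay within the insulin range. The mean was 4701 ± 1629 CPM with vehicle and 3096 ± 572 CPM with insulin (SD, n = 3), so that insulin minus vehicle was −0.60 ± 0.34 on the log2 scale (SE; unadjusted p 0.115, edgeR). Without vehicle replicate 3 it was −0.32 (unadjusted p 0.314), and without vehicle replicate 1 it was −0.82 (unadjusted p 0.0325).

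Otc encodes ornithine transcarbamylase, which joins carbamoyl phosphate to ornithine to form citrulline. Vehicle livers read 442.8, 663.6 and 486.2 CPM and insulin livers 318.6, 397.6 and 314.1 CPM, so every insulin liver was below every vehicle liver. Over all genes tested, 6.04% had all insulin values below all vehicle values. Otc was the one member with this pattern in the CPM. The mean was 530.9 ± 117 CPM in the vehicle group and 343.4 ± 46.9 CPM in the insulin group (SD, n = 3). Its log2 fold change of −0.63 ± 0.26 (SE) passed the study's criteria at an unadjusted p of 0.0413, while the adjusted p was 0.852 (edgeR). Its largest value came from vehicle replicate 2. Otc (chromosome X, 10252305 to 10321024, plus strand) has the most AT-rich transcript of the 9, with a GC content of 41.1%. With the GC offset its log2 fold change was −0.38 (unadjusted p 0.107), and without vehicle replicate 2 it was −0.43 (unadjusted p 0.0556). The 3 insulin values stayed below the 3 vehicle values after the GC correction, which 6.14% of all genes did and Ass1 did as well. Leaving out insulin replicates 1, 2 or 3 gave unadjusted p values of 0.150, 0.0644 and 0.139.

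Slc25a15 encodes the ornithine carrier of the inner mitochondrial membrane, which brings ornithine in and lets citrulline out. Its vehicle livers read 219.2, 205.2 and 524.6 CPM, and its insulin livers 228.5, 199.8 and 276.8 CPM. A single vehicle liver was high and the other two lay among the insulin livers. Insulin minus vehicle was −0.43 ± 0.39 on the log2 scale (SE; unadjusted p 0.306, edgeR), and 0.15 without vehicle replicate 3. The gene is on chromosome 8 (22375551 to 22398597, minus strand).

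Slc25a13 encodes citrin, the aspartate and glutamate carrier that supplies cytosolic aspartate, the source of the second nitrogen of urea. Its vehicle values were 227.5, 390.8 and 290.4 CPM, and its insulin values 230.6, 229.4 and 219.3 CPM. The insulin livers were nearly equal to each other and to vehicle replicate 1, and the highest value belonged to vehicle replicate 2. Its log2 fold change was −0.42 ± 0.26 (SE; unadjusted p 0.144, edgeR), and −0.19 without vehicle replicate 2. Slc25a13 is on chromosome 6 (6041218 to 6217173, minus strand) and the muscle and brain form of the same carrier, Slc25a12, was at 16.7 to 29.7 CPM over the 6 libraries.

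Ass1 encodes argininosuccinate synthase, which condenses citrulline with aspartate in the cytosol. Levels were 1240.4, 713.2 and 3970.2 CPM in the vehicle livers, and 1254.4, 1001.0 and 1106.0 CPM after insulin. Vehicle replicate 3 was 3.17 times the next highest liver, and vehicle replicate 2 was the lowest. Over all libraries insulin minus vehicle was −0.82 ± 0.58 on the log2 scale (SE; unadjusted p 0.197, edgeR). It was −1.21 without vehicle replicate 2 (unadjusted p 0.0297) and 0.20 without vehicle replicate 3 (unadjusted p 0.535).

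The count of Ass1 (chromosome 2, 31470207 to 31520672, plus strand) is uncertain, because the processed pseudogene Gm5424 on chromosome 10 carries its coding sequence almost unchanged. A search of all annotated transcripts for stretches of at least 200 bases with at least 95% identity found this copy of Ass1, the antisense gene at Nags, and no other gene for the remaining 7 members. Over the 1239 coding bases Ass1 and Gm5424 differ at 6 positions, and the longest run without a difference is 398 bases. The stretch with the most differences in 120 bases (positions 310 to 429 of the coding sequence, GENCODE transcripts) is shown to make plain how few bases can tell the reads apart, with the 2 differing bases in capitals.
Ass1: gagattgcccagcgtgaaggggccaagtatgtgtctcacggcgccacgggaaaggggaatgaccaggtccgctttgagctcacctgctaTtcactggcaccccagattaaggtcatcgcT
Gm5424: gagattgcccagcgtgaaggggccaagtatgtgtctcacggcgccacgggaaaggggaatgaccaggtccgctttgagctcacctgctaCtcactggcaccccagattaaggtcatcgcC
Gm5424 was listed at 388.9, 307.6 and 974.7 CPM in the vehicle livers and at 329.3, 281.2 and 320.8 CPM in the insulin livers. It held between 19.7% and 30.1% of the summed value of the pair, the most in vehicle replicate 2. With its counts added to those of Ass1, the log2 fold change of Ass1 was −0.82 ± 0.55 (SE; unadjusted p 0.172, edgeR). The comparison between the groups thus did not turn on how the counted reads were split within the pair. Any reads left uncounted because they matched both genes are missing from the sum, and their part was not tested.

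Asl encodes argininosuccinate lyase, which releases arginine and fumarate. Its vehicle values were 538.4, 477.5 and 1816.3 CPM and its insulin values 617.5, 508.6 and 490.7 CPM. As for Ass1, a single vehicle liver was high, while vehicle replicate 1 lay within the insulin range and vehicle replicate 2 just under it. For Asl, insulin minus vehicle was −0.81 ± 0.51 on the log2 scale (SE; unadjusted p 0.154, edgeR). It was −1.12 without vehicle replicate 2 (unadjusted p 0.0427), −1.04 with the GC offset (unadjusted p 0.0334) and 0.085 without vehicle replicate 3 (unadjusted p 0.724). Asl is on chromosome 5 (130011258 to 130029247, minus strand).

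Arg1 encodes the liver arginase, which splits arginine into urea and ornithine and so closes the cycle. Levels were 1336.5, 1231.8 and 2972.3 CPM in the vehicle livers, and 1295.5, 1157.1 and 1301.9 CPM after insulin. Apart from vehicle replicate 3, the 5 livers spanned a narrow range in which both groups mixed. For Arg1, insulin minus vehicle was −0.56 ± 0.38 on the log2 scale (SE; unadjusted p 0.177, edgeR) and −0.038 without vehicle replicate 3. Arg1 is on chromosome 10 (24915221 to 24927484, minus strand). The second arginase, Arg2, which is not part of the hepatic cycle, was under the filter at 0.138 to 0.585 CPM.

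For a rough comparison of levels between genes, the CPM were divided by transcript length (longest annotated transcript, in kb). Reads lost at exon junctions are not corrected for by this, and the members have from 4 (Nags) to 38 (Cps1) separate exon blocks. In the insulin livers, whose values were tight, Arg1 was the highest at 847 ± 55.4 CPM per kb (SD, n = 3), followed by Ass1 at 661 ± 75.0 and Cps1 at 557 ± 103. The ranges of Ass1 and Cps1 touched, and their order turned when the summed length of all exons was used instead. By that length Arg1 and Cps1 were nearly level, at 562 and 557 CPM per kb. With the counts of Gm5424 added, Ass1 was at 844 ± 88.9 CPM per kb in the insulin livers and thus within the spread of Arg1, and at 1493 ± 1245 CPM per kb in the vehicle livers, where Arg1 was at 1250.4. Asl followed at 223 ± 28.4 CPM per kb and Otc at 115 ± 15.7. The carriers and the glutaminase were lower, with Slc25a13 at 72.6 ± 1.99, Gls2 at 59.1 ± 8.98 and Slc25a15 at 53.1 ± 8.78 CPM per kb, the last 2 within each other's spread. Nags, whose product is a regulator of the cycle and not one of its steps, was the lowest at 30.3 ± 2.49 CPM per kb. In the vehicle group the order was the same except that Gls2 came before Slc25a13.

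The vehicle livers were the source of nearly all the spread. The median SD of log2 CPM over the 9 genes was 0.702 among the vehicle livers and 0.178 among the insulin livers, and it was larger with vehicle for 9 of 9 genes. The same held for 85.2% of all genes tested, whose median SDs were 0.518 and 0.182. The excess was thus shared with the transcriptome, but the libraries behind it were not the same for every member.

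In vehicle replicate 3, 6 of the 9 genes were at least 2-fold above the median of the other 5 livers, where 4.75% of all genes tested were. These were Gls2 at 3.63 times that median, Ass1 at 3.59 times, Asl at 3.57 times, Slc25a15 at 2.39 times, Arg1 at 2.29 times and Cps1 at 2.03 times. Otc, Slc25a13 and Nags were at 1.22, 1.27 and 1.20 times. The 3 cytosolic enzymes, the ornithine carrier, the glutaminase and the entry enzyme were therefore high in this liver, while the next mitochondrial enzyme, the aspartate carrier and the regulator stayed within 1.27 times. Within that liver the CPM of Ass1 was 8.17 times that of Otc, against 1.07 to 3.94 times in the other 5. The GC correction left the same 6 genes at least 2-fold up, from 2.17 times for Cps1 to 3.41 times for Gls2, where 4.96% of all genes were. Vehicle replicate 3 was the highest of the 6 libraries for 7 of the 9 genes, and for 23.4% of all genes.

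**Figure D2:**
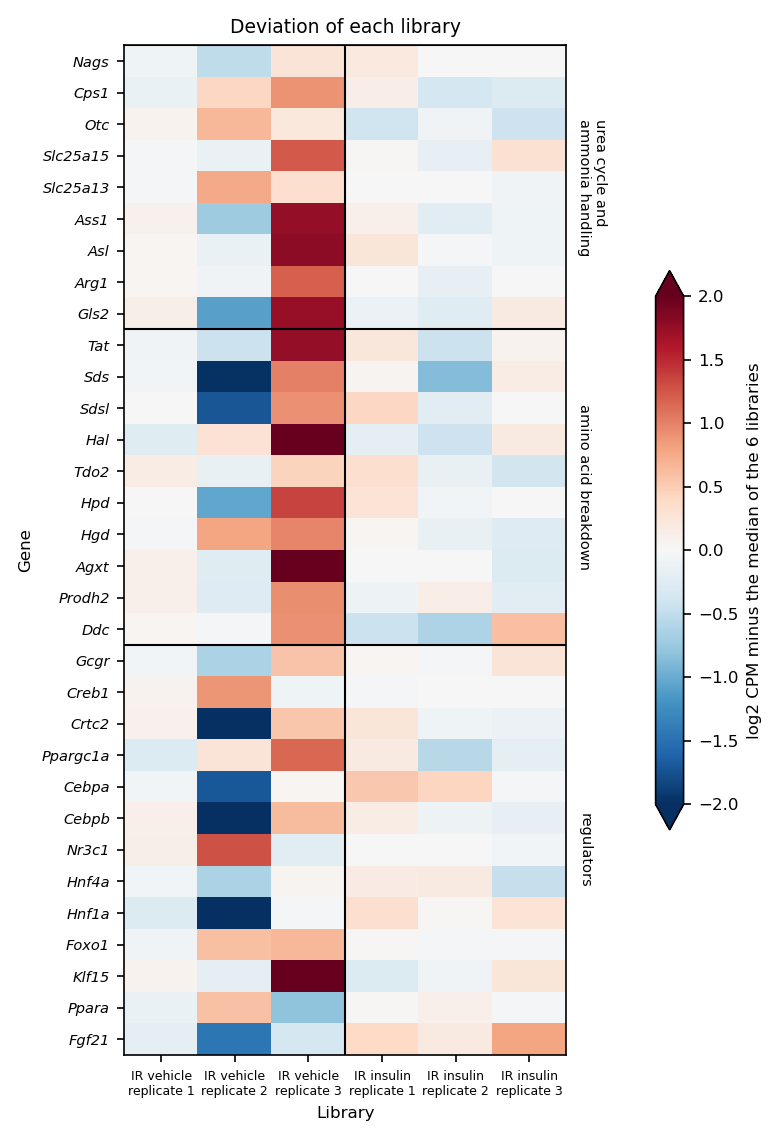
Colour gives log2 CPM (0.1 added to each value) minus the median of the 6 libraries (red higher, blue lower, scale ending at ±2) for the urea cycle and ammonia genes, 10 further genes of amino acid breakdown and 13 regulators, with the vehicle libraries on the left of the vertical line. Vehicle replicate 3 is red for most urea cycle genes and for all 10 amino acid breakdown genes shown, and vehicle replicate 2 mixes red and blue.

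Genes of amino acid breakdown were high in the same liver, while those of glutamine and glutamate metabolism moved less. Of the 12 genes of the latter list, 2 were at least 2-fold up, 4 were highest and 3 were lowest there, with a median deviation of 0.17 on the log2 scale. In contrast, all 11 tested non-member genes of the amino acid breakdown list had their highest value in vehicle replicate 3, at 1.504 to 9.27 times the median of the other 5 livers, and 8 of the 11 were at least 2-fold above it. After the GC correction 10 of the 11 were highest in that liver and 6 were at least 2-fold up, against 26.1% and 4.96% of all genes. Agxt, the peroxisomal alanine and glyoxylate aminotransferase, stood at 1641 CPM in that liver, while the other 5 livers ranged from 147 to 189 CPM. Hal, which opens histidine breakdown, was at 784.6 CPM against 86.3 to 141 CPM. Tat, the tyrosine aminotransferase known for its response to glucagon and glucocorticoids, was at 3268 CPM against 714 to 1122 CPM. Among the 13 regulators, 2 were at least 2-fold up in that liver: Klf15, a factor known to drive amino acid breakdown in fasting, at 233.8 CPM against 45.9 to 66.0 CPM, and Ppargc1a, a coactivator induced by fasting, at 9.44 CPM against 2.81 to 5.03 CPM. Gcgr, the glucagon receptor, was at 251.5 CPM against 109 to 202 CPM. Over the 13 regulators, however, the median deviation was 0.096 on the log2 scale, with 6 highest and 3 lowest in that liver. Of all genes tested, 4.75% were at least 2-fold up there, 23.4% were highest and 23.8% were lowest. The 3 lowest regulators were Creb1, Nr3c1 and Ppara, at 15.6, 55.8 and 85.5 CPM. The mRNA of the gluconeogenic enzyme Pck1 was highest in vehicle replicate 3, at 3543 CPM against 647 to 1786 CPM.

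Zonation markers did not move as one. Of the 7 periportal markers that are not members, 6 were highest in vehicle replicate 3, with a median deviation of 1.08 on the log2 scale, but the list holds Hal, Sds and Pck1, which also belong to amino acid breakdown or gluconeogenesis. Cyp2f2, a periportal marker outside those pathways, was at 625.9 CPM there against 340 to 468 CPM. The 10 pericentral markers had a median deviation of −0.20, and 1 of them, Cyp1a2, was highest there. Markers of other cells did not move one way in that liver. The summed neutrophil markers were lowest there, at 3.48 CPM against 27.5 to 72.9 CPM elsewhere, as were the adipocyte markers, at 0.191 CPM against 25.5 to 157 CPM. The adipocyte sum was mostly Cfd, while Adipoq, Plin1 and Lep were at no more than 0.0866 CPM in any library. The endothelial markers were highest there, at 259 CPM against 161 to 183 CPM. The Kupffer cell markers (372.3 CPM against 256 to 543 CPM), the stellate cell markers (190.9 CPM against 121 to 224 CPM) and the erythroid markers (413 CPM against 312 to 1587 CPM) lay within the range of the other livers. Single Kupffer cell markers differed in direction, with Clec4f and Vsig4 highest there, at 120 and 35.9 CPM, and Adgre1 lowest, at 15.4 CPM. Of the pancreatic markers, Prss2, Cpa1, Pnlip, Ctrb1 and Ins2 were at 0 in all 6 libraries, as were Acta1 and Tnnt3 of muscle and Lep of adipocytes. The part of these other cells in the values of the members was not tested.

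In vehicle replicate 2 the members followed the GC content of their transcripts. Otc, Cps1 and Slc25a13, with GC contents of 41.1%, 46.6% and 47.0%, were above the median of the other 5 livers, by 1.67, 1.45 and 1.70 times. Ass1, Gls2 and Nags, at 54.7%, 56.6% and 59.7% GC, were under it, at 0.575, 0.432 and 0.698 times. Asl, at 55.5% GC, was at 0.887 times. Spearman's rho between GC content and deviation was −0.867 over the 9 genes, which all come from 1 library, and −0.666 over 13367 genes. After the GC correction Ass1 was at 1.01 times, Gls2 at 0.901 times and Otc at 1.06 times the median of the others, while Nags and Asl turned from low to high at 1.93 and 1.55 times and Slc25a13 stayed up at 1.501 times. This library also held more B cell and erythroid transcripts, with summed markers of 40.3 CPM against 2.86 to 10.04 CPM and of 1587 CPM against 312 to 626 CPM. The part of these in the values of the members was not tested.

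**Figure D3:**
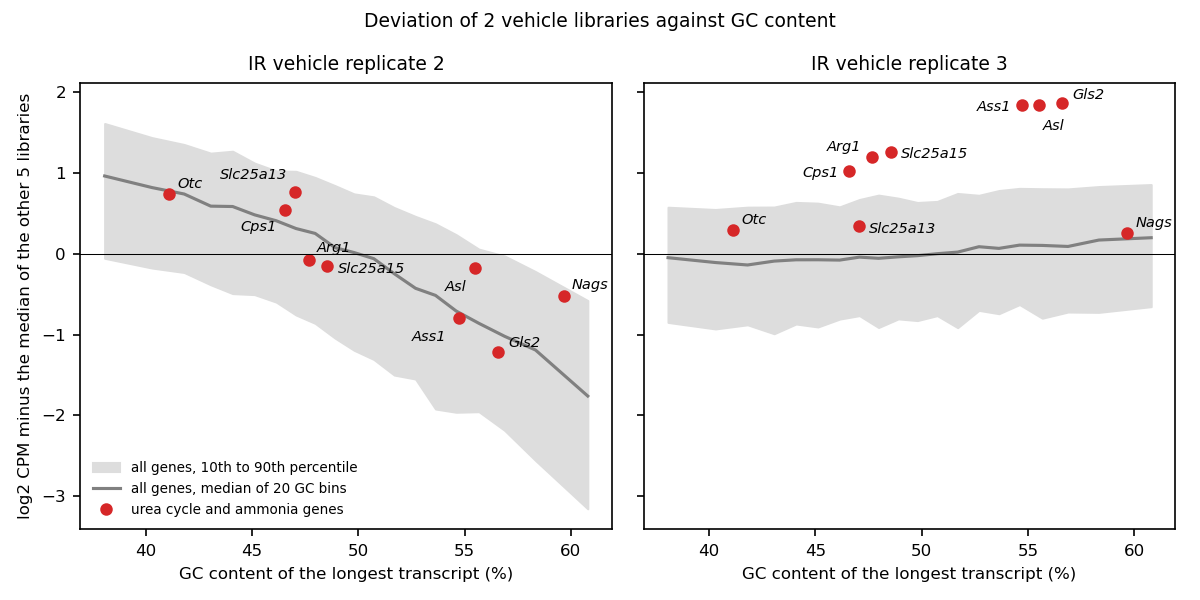
The deviation of 2 vehicle libraries from the median of the other 5 (log2 CPM, vertical axis) against the GC content of the longest transcript (%), with all genes as a grey median line and 10th to 90th percentile band over 20 GC bins and the 9 genes as red points. In vehicle replicate 2 the points run down with GC content as the grey line does, and in vehicle replicate 3 the line is nearly flat and 6 genes stand above the band.

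Vehicle replicate 1 lay within the range of the insulin livers for 6 of the 9 genes, above all of them for Otc and Arg1 and below all of them for Nags. For the 9 genes, the insulin mean was between 0.776 times (Otc) and 1.12 times (Nags) the value in vehicle replicate 1. With vehicle replicates 2 and 3 both left out, the log2 fold changes ran from −0.36 for Otc (unadjusted p 0.0981) to 0.17 for Nags (unadjusted p 0.324), and 0 of the 9 passed the study's criteria, against 2.13% of all genes. That comparison rests on 1 vehicle liver, whose spread is assumed to equal that of the insulin livers.

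The lower group means of the members accordingly rested on different livers. Without vehicle replicate 3, 4 of the 9 genes were lower with insulin, Cps1, Otc, Arg1 and Slc25a13, where 48.5% of all genes were. The median log2 fold change of the 9 was then 0.085, and Otc passed the criteria, against 6.51% of all genes. Without vehicle replicate 2, all 9 were lower with insulin, where 47.9% of all genes were. Ass1, Asl and Gls2 then passed, against 3.69% of all genes. Without vehicle replicate 1, Cps1 and Otc passed, against 9.81% of all genes. Ass1, Asl, Slc25a15 and Gls2 changed sign when vehicle replicate 3 was left out. In none of these fits did any gene pass an adjusted p of 0.05 in edgeR, the smallest being 0.114 without vehicle replicate 1. Otc also passed with RLE scaling (3.0% of all genes), upper-quartile scaling (2.61%) and DESeq2 (2.38%), and Asl passed with the GC offset (3.55%). No member passed without the filter on low counts (3.22%), with voom (1.59%), with the replicate number as a block (2.4%, or 2.5% with the GC offset as well), with the GC offset and no vehicle replicate 3 (5.24%), or without insulin replicates 1, 2 or 3 (0.727%, 1.05% and 0.875%).

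**Figure D4:**
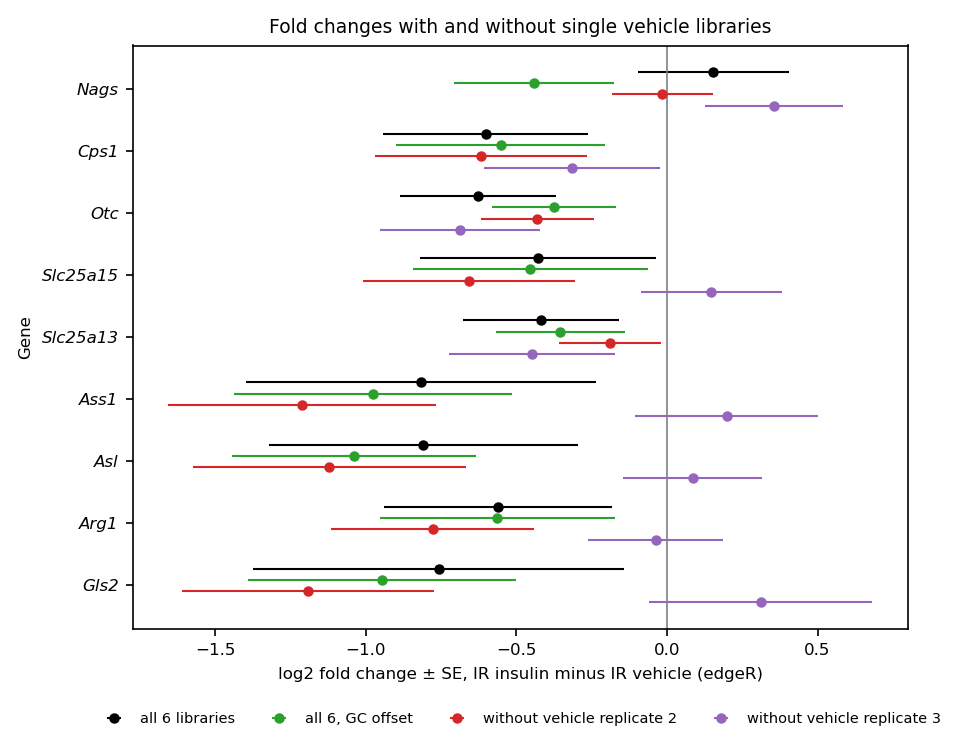
Log2 fold changes with SE (edgeR, IR insulin minus IR vehicle, horizontal axis) of the 9 genes from all 6 libraries (black), with a GC offset (green), without vehicle replicate 2 (red) and without vehicle replicate 3 (purple). For Ass1, Asl, Slc25a15 and Gls2 the purple point lies right of 0 and the others left of it. For Cps1, Otc, Arg1 and Slc25a13 all 4 points lie left of 0, the purple point of Arg1 only just (−0.038).

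Further genes of ammonia and amino acid nitrogen handling were read from 6 lists. Of 67 genes outside the 9 members, 63 were tested, 24 with a higher and 39 with a lower mean with insulin, and 5 passed the study's criteria, 2 higher and 3 lower, against 1.0% and 1.86% of all genes. The median log2 fold change was −0.19. None passed an adjusted p of 0.05.

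Glutamine synthetase, encoded by Glul, is the pericentral enzyme that captures what the urea cycle leaves. It was at 1202.6, 828.7 and 797.1 CPM in the vehicle livers and at 1308.8, 1059.3 and 1222.8 CPM in the insulin livers, a difference of 0.34 ± 0.27 on the log2 scale (SE; unadjusted p 0.239, edgeR). The groups overlapped, with vehicle replicates 2 and 3 the 2 lowest livers. The ratio of the CPM of Cps1 to that of Glul was 2.61, 5.51 and 8.02 in vehicle replicates 1, 2 and 3 and 2.32 to 2.87 in the insulin livers. Glud1, the mitochondrial glutamate dehydrogenase that releases ammonia from glutamate, had all its insulin values (666 to 835 CPM) under all its vehicle values (928 to 1326 CPM), with a log2 fold change of −0.58 ± 0.26 and an unadjusted p of 0.0530. Gcsh, the hydrogen carrier of glycine cleavage, was at a log2 fold change of −0.44 ± 0.21 (unadjusted p 0.0658).

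Of the 10 transporters tested, Slc38a2, a sodium-coupled neutral amino acid transporter, passed the study's criteria. Its vehicle livers read 43.6, 97.1 and 134.5 CPM and its insulin livers 42.4, 40.6 and 47.0 CPM (log2 fold change −1.08 ± 0.38, unadjusted p 0.0231, edgeR). Slc7a2, which carries arginine and ornithine into cells, read 202.7, 389.5 and 647.5 CPM in the vehicle livers and 263.4, 180.2 and 200.9 CPM after insulin (−0.94 ± 0.41, unadjusted p 0.0522). In both genes vehicle replicates 2 and 3 were high and vehicle replicate 1 lay with the insulin livers.

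On the branches that use ornithine and arginine, 1 of the 10 genes tested passed. Azin1, an inhibitor of antizyme, did not, at a log2 fold change of −0.68 ± 0.37 (unadjusted p 0.107). None of the 7 genes that support urea synthesis passed. Among them Car5a, which supplies bicarbonate to carbamoyl phosphate synthetase 1, was at a log2 fold change of 0.17 ± 0.28 (unadjusted p 0.561), and Sirt5, which removes acyl groups from that enzyme, at 0.35 ± 0.29 (unadjusted p 0.256). Mdh1, the cytosolic malate dehydrogenase, was at −0.59 ± 0.26 (unadjusted p 0.0540) and Car5b at −0.51 ± 0.34 (unadjusted p 0.170).

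Fgf21, a hepatokine induced by fasting and by amino acid stress, was the regulator that passed. Vehicle livers read 6.66, 2.70 and 5.87 CPM and insulin livers 9.91, 8.49 and 13.1 CPM (log2 fold change 1.04 ± 0.38, unadjusted p 0.0247, edgeR). The groups did not overlap, with insulin higher, which held for 6.25% of all genes. Klf15 was at a log2 fold change of −1.04 ± 0.58 (unadjusted p 0.109), a difference carried by vehicle replicate 3. All 12 genes of the amino acid breakdown list, Gls2 included, had a lower mean with insulin, and 2 of them passed, among them Hgd. This enzyme, which acts 2 steps after Tat in tyrosine breakdown, was at 374.5, 662.0 and 758.5 CPM against 395.7, 346.1 and 320.8 CPM (−0.76 ± 0.31, unadjusted p 0.0400). Agxt and Hal had the largest log2 fold changes in the list, −1.98 ± 0.86 and −1.69 ± 0.73, with unadjusted p values of 0.0502 and 0.0510, and in both the vehicle mean rested on vehicle replicate 3.

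The genes whose log2 CPM ran most like the median profile of the 9 members, among 5162 genes with a mean of at least 20 CPM, were Gm5424, Txndc17, Rpl9, Asgr2 and Agxt, with Pearson's r of 0.994, 0.992, 0.991, 0.990 and 0.990 over the 6 libraries. The profile is one high library, vehicle replicate 3 (1.02 above the mean on the log2 scale), and 5 low ones, so any gene that is high there alone will score well. Of the members, Arg1 followed it at 0.997 and Asl at 0.991, while Otc and Slc25a13 were at 0.169 and 0.161. Each member is itself part of the profile, and Gm5424 is the near-identical copy of Ass1, so these values are not independent of it. Over the same range Rpl9 moved only from 178.8 to 271.2 CPM and Agxt from 147.3 to 1641.0 CPM.

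Upstream sequence was looked at because some members were high together in vehicle replicate 3 and others were not. RefSeq starts in build GRCm38.p6 were matched for 5 of the 9 genes, Otc, Ass1, Nags, Slc25a13 and Slc25a15. The 250 bases before the start are shown for Slc25a15, which was high in that liver, and for Otc and Slc25a13, which were not, with every motif found in capitals. They lie at chr8:22398622-22398871 on the minus strand, chrX:10252055-10252304 on the plus strand and chr6:6217174-6217423 on the minus strand.
Slc25a15: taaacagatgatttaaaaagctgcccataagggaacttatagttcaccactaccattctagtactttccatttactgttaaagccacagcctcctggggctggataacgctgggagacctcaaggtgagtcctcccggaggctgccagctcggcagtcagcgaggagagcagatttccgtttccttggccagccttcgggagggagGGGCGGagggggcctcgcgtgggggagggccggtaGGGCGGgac
Otc: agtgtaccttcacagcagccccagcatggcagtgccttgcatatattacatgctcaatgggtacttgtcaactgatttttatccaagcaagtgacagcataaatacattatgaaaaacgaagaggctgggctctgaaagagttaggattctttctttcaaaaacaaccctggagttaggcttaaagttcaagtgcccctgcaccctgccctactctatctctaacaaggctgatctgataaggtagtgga
Slc25a13: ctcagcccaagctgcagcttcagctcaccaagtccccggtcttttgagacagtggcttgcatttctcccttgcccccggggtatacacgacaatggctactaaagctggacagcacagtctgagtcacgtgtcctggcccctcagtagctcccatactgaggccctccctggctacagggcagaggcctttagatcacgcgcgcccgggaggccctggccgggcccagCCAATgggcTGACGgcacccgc
The motifs searched on both strands were the cyclic AMP response element (CRE) TGACGTCA and its shorter core TGACG, which it contains, the C/EBP site TTNNGCAA, the glucocorticoid receptor site AGAACA, the CCAAT box of that spelling, the GC box GGGCGG, the TATA box TATAAA and the HNF4 site CAAAGTCCA. The GC box was found 2 times before Slc25a15 and Nags and once before Ass1, and 32.9% of 27025 promoters (1 per gene, same length) hold it. For Ass1 the RefSeq start lies 63 bases inside the gene as GENCODE annotates it. Its GC box, 63 to 58 bases before the RefSeq start, is thus within the annotated gene. Slc25a13 had 1 CRE core, found in 17.9% of promoters, and 1 CCAAT box, found in 34.5%. The window before Otc held none of the motifs. The full CRE, the C/EBP site, the glucocorticoid receptor site, the TATA box and the HNF4 site, which 1.62%, 9.55%, 16.2%, 13.0% and 0.381% of promoters hold, were in none of the 5 windows. The GC content of the windows ran from 43.6% for Otc to 75.6% for Ass1, against a median of 52.0% over all promoters.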

How the data were processed

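The deposited table holds raw read counts per gene for 6 livers, which the authors made by aligning reads with Bowtie 2 (version 2.2.3, per the labels) to mm10, mouse build 38. The counting program, its annotation and its strand setting are not given in the sources used here, and an aligner without spliced alignment can lose junction reads. Groups and replicate numbers came from the sample titles. Each library is 1 mouse. Of the 54532 genes, 54495 (99.9%) were found in GENCODE M21, which gave coordinates, lengths and GC content.

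The insulin and vehicle groups were compared by edgeR's quasi-likelihood test (version 4.0.16 in R 4.3.3) on all 6 libraries, with TMM factors, no covariate, filterByExpr (minimum count 10, minimum total 15) and Benjamini-Hochberg adjustment over 13377 genes. The biological coefficient of variation was 0.357. SEs were derived from the F statistic. Alternatives included DESeq2 1.42.0, the tool named in the study's methods, and voom (limma 3.58.1). For the GC correction, a loess curve (span 0.5) of deviations on GC content was fitted per library. Log2 CPM used a prior count of 2. The pipeline was tested on simulated counts. No exact permutation test was run, since 3 against 3 mice allow no two-sided p below 0.1.

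The members and gene lists were chosen with earlier results of these data known. Named are the 9 members with all 6 values, Glul, Glud1, Arg2, Slc25a12, Car5a and Sirt5 by role, each further listed gene past the study's criteria, the 2 genes with the smallest p per list, and the 5 genes most like the median member profile. Agxt, Hal, Tat, Ppargc1a, Gcgr, Creb1, Nr3c1, Ppara and the zonation and cell markers given with values were chosen after their values were seen. A few genes that the rule names are not reported here, though the list counts include them.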

Additional observations from a re-analysis of the deposited data

How the results depend on the processing

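The comparison of the 2 groups was repeated under 17 alternatives, 14 planned and 3 added after seeing the data, which gave 153 values for the 9 genes. Of these, 125 kept both their direction and their side of the study's criteria, 11 of the rest no longer passed, 5 newly passed and 12 changed sign. Otc was lower with insulin in every one of them. Cps1 and Slc25a13 also had no positive value, but with only vehicle replicate 1 left they were next to 0, at −0.015 (unadjusted p 0.95) and −4.7e-05 (unadjusted p 1.0). The number of members that passed (1 with all libraries) was 0 with no filter on low counts, with voom and sample quality weights, with the replicate block, with the replicate block and GC offset, with only vehicle replicate 1 left in that group, and with the GC offset and no vehicle replicate 3. It ran from 0 to 3 when 1 library was left out in turn. Otc passed with TMM, RLE and upper-quartile scaling, with DESeq2 and without vehicle replicates 1 or 3. The number of members higher with insulin was 1 with all libraries, where 48.6% of all genes were higher. It was 0 with the GC offset (42.0% of all genes) and 0 with the block as well (45.9%). With only vehicle replicate 1 it was 3 (53.2%), and with the GC offset and no vehicle replicate 3 it was 2 (44.1%). With 1 library left out in turn it ran from 0 to 5, against 48.2% to 52.1% of all genes. The median over the members ran from −0.75 without vehicle replicate 1 to 0.085 without vehicle replicate 3, and was −0.015 with only vehicle replicate 1. The number of further genes that passed was 5 of 63 with all libraries, where 2.86% of all genes did. It was 10 of 67 with no filter (3.22% of all genes) and 10 of 66 with DESeq2 (2.38%). Of 63 again, it was 2 with voom (1.59%), 3 with the block (2.4%) and 11 with the GC offset (3.55%). With 1 library left out it ran from 1 without insulin replicate 1 (0.727%) to 12 without vehicle replicates 1 (9.81%) or 2 (3.69%). The causes of these shifts were not tested.

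Over the fits without 1 library, the log2 fold change of Ass1 ran from −1.21 to 0.20, that of Asl from −1.12 to 0.085, that of Nags from −0.016 to 0.35, that of Slc25a15 from −0.66 to 0.15 and that of Gls2 from −1.19 to 0.31, the lowest without vehicle replicate 2 and the highest without vehicle replicate 3 in each. With only vehicle replicate 1, Asl was at 0.0081 and Slc25a15 at 0.11. With the GC offset and no vehicle replicate 3, Arg1 was at 0.023, Slc25a15 at 0.15 and Nags at −0.55. Nags was at −0.44 with the GC offset and at −0.39 with the GC offset and the replicate block. The sample titles link the mice across groups only by a number and state no pairing. The deviations of same-numbered mice correlated at −0.0390, 0.0688 and 0.0174. These values, from 3 mice a group, cannot show whether same-numbered mice shared a batch. With the replicate block Otc was at −0.61 (unadjusted p 0.0746), and 321 genes passed in place of 383. With 3 mice a group and this spread, all adjusted p values of the members lay between 0.506 and 1.0 over the settings run.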
